A study of Mus musculus with 6 samples.

Results

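Marker genes of lymphocytes and natural killer (NK) cells were followed in liver RNA of mice with and without a Retnla transgene. The 34 genes were chosen by name: 15 mark T cells, 12 mark NK cells and cytotoxic lymphocytes, 6 mark B cells, and Ptprc (CD45) marks all leukocytes. A gene was measured where a probe set, the group of array probes for a transcript, was annotated with that gene alone. This held for 32 of the 34, among 18193 measured genes in all: 14 T cell genes, 11 NK and cytotoxic genes, the 6 B cell genes and Ptprc. Lck and Klrb1c were not analysed here. Where a gene had several probe sets, the one with the highest mean over the 6 arrays stood for it.

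The study compared 3 Retnla transgenic mice (Tg 5, Tg 6 and Tg 7) with 3 non-transgenic mice (non-Tg 1, non-Tg 2 and non-Tg 3), each on its own Affymetrix mouse genome array. All 6 were males on a C57BL6/J background, aged 3 months. From 8 weeks of age all were fed, for 4 weeks, a diet rich in fat (21%) with 0.15% cholesterol, so no group on standard chow entered the comparison. The product of Retnla, resistin-like molecule alpha, is secreted and is best known from alternatively activated macrophages. For the transgene, its promoter and the cells that express it, the sources used here give nothing.

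T cells recognise antigen through a receptor whose CD3 and zeta chains pass the signal to the kinases Lck and Zap70 and the adaptor Lat. NK cells and cytotoxic T cells kill by releasing perforin and granzymes, and B cells carry an antigen receptor that signals through CD79A and CD79B. The liver's sinusoids hold many NK cells, NKT cells and T cells, but most of the RNA in a piece of liver comes from hepatocytes. In RNA from a whole piece of liver, fewer cells of a type and less RNA per cell cannot be told apart.

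None of the 32 measured markers passed the test between Tg and non-Tg livers. The limma adjusted p-values of the 32 ran from 0.826 to 0.999, adjusted over all 18193 genes, of which 0.011% (Retnla and Nnt) passed at 0.05. NK and cytotoxic markers had the largest median log2 difference (Tg minus non-Tg), 0.89 over 11 genes, followed by T cell markers with 0.51 over 14 and B cell markers with 0.22 over 6, beside 0.03 over all genes. In the direction of the mean, 10 of 14 T cell genes, 9 of 11 NK and cytotoxic genes and 5 of 6 B cell genes were above 0, against 53.4% of all genes. At an unadjusted limma p under 0.05, 3 markers (Cd2, Zap70 and Gzma) were higher and 0 were lower in Tg livers, against 3.19% and 2.86% of all genes. With arrays blocked by their signal for the spike-in bioC, a technical control described with the array sets, Cd2 alone of the 3 had an unadjusted limma p under 0.05. The groups did not overlap for 3 markers, Gzma, Il2rb and Cd247, all 3 higher in Tg livers, and for 0 on the lower side, against 6.12% and 5.09% of all genes.

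Many of these genes were dim. No detection calls were at hand, so olfactory and vomeronasal receptor genes, taken here as mostly silent in liver, served as a gauge of background. Whether some of them are expressed in liver was not tested. For 71 such genes the mean log2 signal over the 6 arrays ran from 1.80 to 6.64, and their 95th percentile, 6.14, was taken as the background line. The control TrpnX, a bacterial transcript, had a mean log2 signal of 2.51 and reached at most 5.52 on these arrays. Of the 32 markers 16 lay above the line and 16 at or below it, while 63.7% of all genes lay above. Above it stood 5 of 14 T cell genes (Zap70, Cd8a, Thy1, Cd5 and Il7r), 5 of 11 NK and cytotoxic genes (Klrk1, Klrd1, Prf1, Il2rb and Gzma), 5 of 6 B cell genes (Cd22, Cd79b, Pax5, Cd79a and Ms4a1) and Ptprc. Il7r at 6.24 was just above the line and Cd247 at 6.11 just below it.

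Genes near background were on balance higher in Tg livers, though by how much depended on the scaling and the arrays. All 6609 genes at or below the line had a median log2 difference of 0.18, and 56.8% of them were higher in Tg livers; under quantile normalization that median was 0.04. The 71 olfactory and vomeronasal genes had a median difference of 0.26, with 43 of them higher, 3 without overlap, and single differences from -2.39 to 2.80. With the array set as a block their median was -0.03. The 16 dim markers had a median of 0.70 and the 16 markers above the line 0.37. With 64 added to every signal before the log, which shrinks differences of dim genes, these medians were 0.26 and 0.26, and the 6609 dim genes stood at 0.05. The part of background in the differences of dim markers was not tested.

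**Figure D1:**
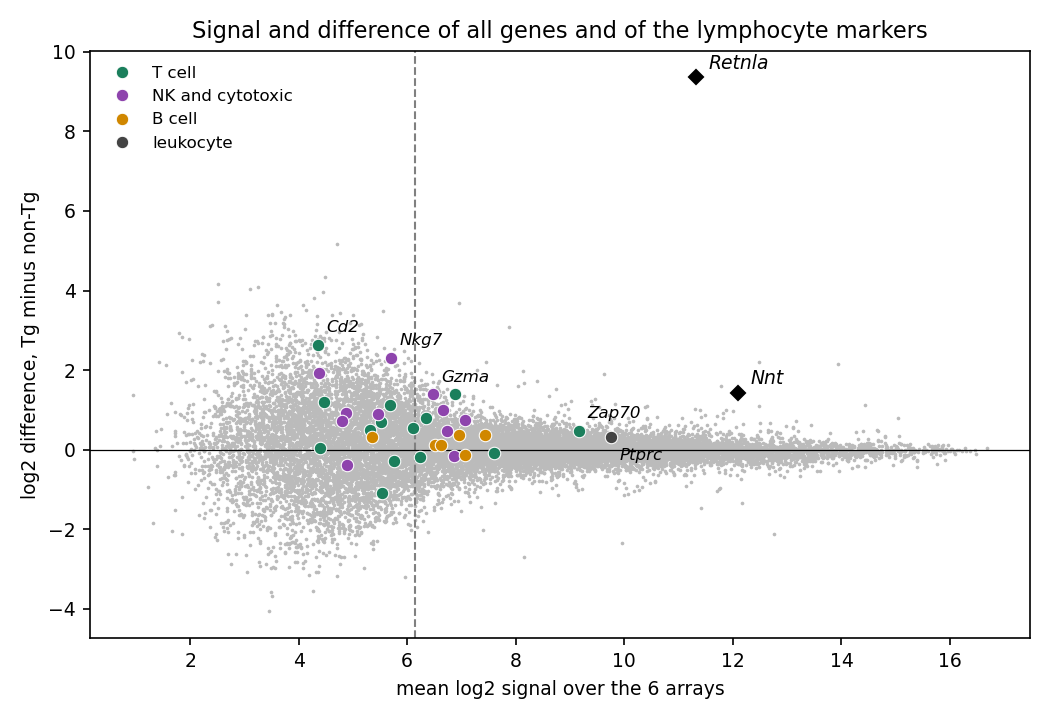
The horizontal axis is the mean log2 signal over the 6 arrays and the vertical axis the log2 difference, Tg minus non-Tg. Grey points are all 18193 genes, coloured points the 32 markers by cell type, diamonds Retnla and Nnt, and the dashed line is the background line at 6.14. The markers lie inside the cloud of genes of like signal, which widens to the left, with 16 of them left of the line.

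Zap70 was the brightest of the T cell markers and had the smallest standard error among them. It encodes the kinase that binds the phosphorylated T cell receptor chains and is also used by NK cells. Its log2 signal was 9.14, 8.76 and 8.87 in non-Tg 1, 2 and 3 and 9.78, 9.35 and 9.06 in Tg 5, 6 and 7. The groups overlapped by 1 value, since Tg 7 lay below non-Tg 1. Tg livers were 0.47 ± 0.21 (SE, n = 3 each) higher on the log2 scale. As a fold this is 1.39, and limma's 95% interval, from 1.00 to 1.92, just excluded no difference before adjustment (limma adjusted p = 0.826). Without Tg 5 the difference was 0.28. A second Zap70 probe set read 8.97, 8.82 and 8.75 in non-Tg livers and 9.44, 9.36 and 9.24 in Tg livers, and the other 7.75, 8.27 and 8.32 against 8.69, 8.74 and 8.97. Neither of these overlapped between groups, with differences of 0.50 and 0.69.

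The chains of the T cell receptor complex were all near background. Cd3g was at 6.00, 3.96 and 5.40 in non-Tg livers and 6.29, 7.15 and 5.26 in Tg livers, a difference of 1.12 ± 0.77 (SE). Cd3d was at 3.87 ± 0.52 in non-Tg and 5.07 ± 1.68 in Tg livers (SD, n = 3 each). Its difference rested on Tg 6 at 6.98, while Tg 5 and Tg 7, at 3.82 and 4.41, lay inside the non-Tg range of 3.40 to 4.43. Cd3e differed by 0.70 ± 0.68 (SE), and its groups overlapped. Cd247, the zeta chain, was at 5.99, 5.61 and 5.93 in non-Tg livers and 6.08, 6.79 and 6.26 in Tg livers. Its groups did not overlap, though Tg 5 exceeded non-Tg 1 by little. The means differed by 0.53 ± 0.52 (SE; limma adjusted p = 0.897), but 3 other Cd247 probe sets gave -0.82, -0.46 and 1.98. The adaptor Lat, at -0.28 ± 1.12 (SE), spread from 3.85 to 7.86 among the Tg livers alone.

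Other surface molecules of T cells were mostly higher in Tg livers on average, though none passed. Thy1, a glycoprotein of T cells that stromal cells also carry, was at 7.45, 6.49 and 4.63 in non-Tg livers and 8.02, 7.95 and 6.77 in Tg livers, a difference of 1.39 ± 0.68 (SE; limma adjusted p = 0.847). Tg 5 and Tg 6 lay above all non-Tg values and Tg 7 below non-Tg 1. Without non-Tg 3 the Thy1 difference was 0.61. Cd5, a brake on receptor signalling, differed by 0.80 ± 0.57 (SE), with Tg 6 highest at 7.42. Cd2, an adhesion receptor, showed the largest difference of the 32, 2.64 ± 1.08 (SE; limma adjusted p = 0.826). It was near background, at 1.22, 3.03 and 4.85 in non-Tg livers and 5.92, 6.56 and 4.53 in Tg livers, and with 64 added before the log it differed by 0.65. Cd6 stood at 0.49 and Il7r, the interleukin 7 receptor that supports T cell survival, at -0.19, while a dimmer Il7r probe set gave 1.61.

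The coreceptors that divide helper from cytotoxic T cells had mean differences at or below 0.04. Cd4 was at 6.80, 5.34 and 6.13 in non-Tg livers and 4.48, 4.30 and 6.18 in Tg livers, a difference of -1.10 ± 0.75 (SE; limma adjusted p = 0.864). It was the lowest difference among the 32 markers, and Tg 7 lay inside the non-Tg range. Cd8a differed by -0.09 ± 0.34 (SE), or 0.94-fold with a 95% interval from 0.56 to 1.57, on its brightest probe set, and by 0.55, 0.13, 0.71 and -2.11 on 4 dimmer ones. Cd8b1, near background, stood at 0.04 ± 1.13 (SE).

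**Figure D2:**
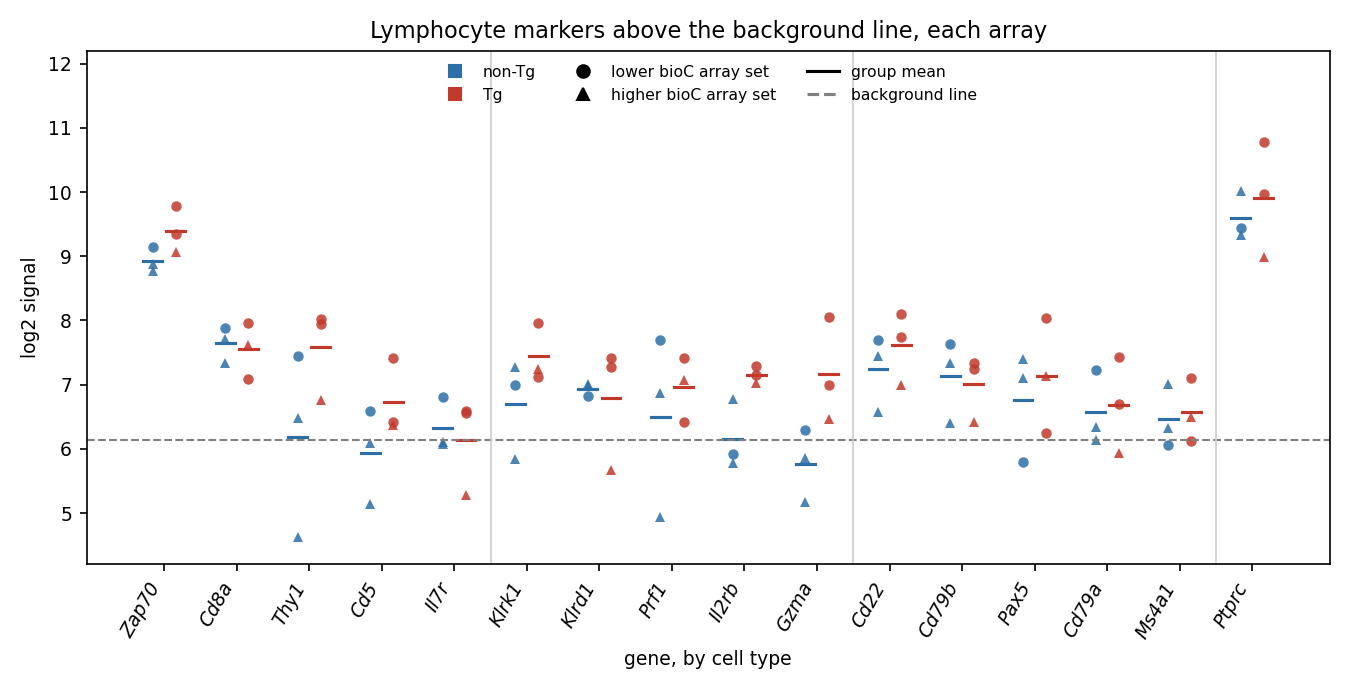
The vertical axis is the log2 signal and the horizontal axis lists the 16 markers above the background line, by cell type. Each point is 1 array, non-Tg in blue and Tg in red, circles for the lower and triangles for the higher array set by the bioC control, with bars at the group means and the background line dashed. Gzma and Il2rb are the 2 genes whose Tg points all lie above their non-Tg points.

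Among the genes of cytotoxic granules Gzma differed most clearly. It encodes granzyme A, a serine protease abundant in NK cells. Its log2 signal was 6.29, 5.17 and 5.85 in non-Tg 1, 2 and 3 and 6.99, 8.05 and 6.46 in Tg 5, 6 and 7. The groups did not overlap, though Tg 7 exceeded non-Tg 1 by little. The means differed by 1.39 ± 0.57 (SE), a 2.63-fold higher signal in Tg livers with a 95% interval from 1.10 to 6.28 (limma adjusted p = 0.826). With 64 added before the log the difference was 0.82. The exact permutation p was 0.1, the smallest that 20 assignments of 3 mice against 3 can give.

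Gzma and Gzmk lie on chromosome 13, the chromosome of Nnt, with 20 and 19 measured genes between them and Nnt in RefSeq's gene order (GRCm38.p6). Nnt itself, a mitochondrial NADPH-producing enzyme, was 1.43 ± 0.11 (SE) higher in Tg livers (limma adjusted p = 0.000963). Gzmk, granzyme K, was near background and differed by 0.93 ± 1.14 (SE). It read 6.03, 2.56 and 4.63 in non-Tg livers and 6.61, 6.09 and 3.30 in Tg livers, so its groups overlapped. The median over the other 9 NK and cytotoxic markers, without both granzymes, was 0.74. The part of chromosome position in the Gzma difference was not tested.

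For the other granule genes the groups overlapped. Nkg7, a granule membrane protein needed for degranulation, was at 5.62, 1.65 and 6.36 in non-Tg livers and 6.88, 7.43 and 6.25 in Tg livers. Its difference of 2.31 ± 1.10 (SE; limma adjusted p = 0.833) rested largely on the 1.65 of non-Tg 2; without that mouse it was 0.86, and with 64 added before the log 0.81. Prf1, perforin, was at 7.70, 4.93 and 6.86 in non-Tg livers and 7.42, 6.41 and 7.07 in Tg livers, a difference of 0.47 ± 0.67 (SE), and its highest value was in non-Tg 1. Without non-Tg 2 the Prf1 difference was -0.32. A second Prf1 probe set gave 0.25. Gzmb, granzyme B, was near background at -0.38 ± 1.02 (SE).

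The promoters of Gzma, Nkg7 and Prf1 are shown because these 3 granule genes, alone among the 24 of the 34 markers that RefSeq's promoter table covers, hold core letters of both RUNX and T-box factors, the factor families that direct cytotoxic genes in NK and T cells. Each window has 250 bases before and 50 after the start, from GRCm38.p6, read 5′ to 3′ on the gene's strand. Capitals mark TGTGGT (RUNX), AGGTGT (T-box) and GGAAGT (ETS) on either strand.
Gzma, chr13:113100932-113101231, minus strand: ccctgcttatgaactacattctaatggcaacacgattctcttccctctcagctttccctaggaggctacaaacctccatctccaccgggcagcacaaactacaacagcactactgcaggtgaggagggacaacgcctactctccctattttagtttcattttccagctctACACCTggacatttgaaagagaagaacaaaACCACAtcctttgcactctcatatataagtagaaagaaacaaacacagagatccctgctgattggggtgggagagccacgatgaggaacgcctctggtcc
Nkg7, chr7:43436888-43437187, plus strand: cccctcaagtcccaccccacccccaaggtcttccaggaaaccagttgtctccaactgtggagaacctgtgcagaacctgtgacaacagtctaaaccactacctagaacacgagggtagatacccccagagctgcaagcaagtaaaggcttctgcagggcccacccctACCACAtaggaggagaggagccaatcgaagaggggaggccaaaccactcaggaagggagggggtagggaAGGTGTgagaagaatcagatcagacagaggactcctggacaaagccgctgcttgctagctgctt
Prf1, chr10:61297586-61297885, plus strand: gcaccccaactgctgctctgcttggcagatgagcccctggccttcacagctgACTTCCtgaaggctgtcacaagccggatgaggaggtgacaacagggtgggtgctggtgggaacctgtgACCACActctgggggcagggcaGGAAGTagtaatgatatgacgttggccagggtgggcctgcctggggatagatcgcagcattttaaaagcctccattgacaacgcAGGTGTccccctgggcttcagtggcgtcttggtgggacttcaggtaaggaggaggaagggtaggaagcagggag

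TGTGGT stood in the promoters of 11 of the 24 markers, AGGTGT in 9 and GGAAGT in 13, and no matches overlapped each other. Some markers have several windows, and counted by window the letters stood in 12, 9 and 15 of 29. Of 32851 promoter windows of the same length in the table, 16.8% held TGTGGT, 13.7% AGGTGT and 23.8% GGAAGT, and 2.85% held both of the first pair. Of the 3 genes shown, Gzma did not overlap between groups while Nkg7 and Prf1 did. A match of letters describes the window and is no measure of binding.

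None of the NK cell receptors passed, and on the probe sets used all but Klrd1 had mean differences above 0. Il2rb, the receptor chain through which interleukins 2 and 15 sustain NK cells, was at 5.92, 5.78 and 6.78 in non-Tg livers and 7.15, 7.29 and 7.02 in Tg livers. The groups did not overlap, and the SD was 0.13 among Tg and 0.54 among non-Tg livers. Tg livers were 0.99 ± 0.46 (SE) higher, or 1.99-fold with a 95% interval from 0.987 to 4.02 (limma adjusted p = 0.828). A second, dimmer Il2rb probe set gave -0.33, and over both the mean difference was 0.33. Klrk1, the activating receptor NKG2D, was at 6.99, 7.27 and 5.84 in non-Tg livers and 7.12, 7.96 and 7.24 in Tg livers, a difference of 0.74 ± 0.47 (SE). Klrd1 (CD94) was at 6.83, 7.01 and 6.97 in non-Tg livers and 7.27, 7.42 and 5.67 in Tg livers. Its mean difference was -0.15 ± 0.52 (SE), with Tg 5 and Tg 6 above and Tg 7 below every non-Tg value. Ncr1 (NKp46), near background, stood at 0.89 ± 1.07 (SE), and at -0.49 without non-Tg 2. The differences of Klrk1 without non-Tg 3 and of Klrd1 without Tg 7 were 0.31 and 0.41.

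The T-box factors that direct NK cell development were near background. Tbx21 (T-bet) was at 1.78, 3.06 and 5.41 in non-Tg livers and 6.27, 5.98 and 3.78 in Tg livers, a difference of 1.93 ± 1.12 (SE; limma adjusted p = 0.853). Eomes stood at 0.71 ± 1.06 (SE) on its brighter probe set and at -1.64 on the other, and without non-Tg 3 the brighter one gave -0.16. For both genes the groups overlapped.

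**Figure D3:**
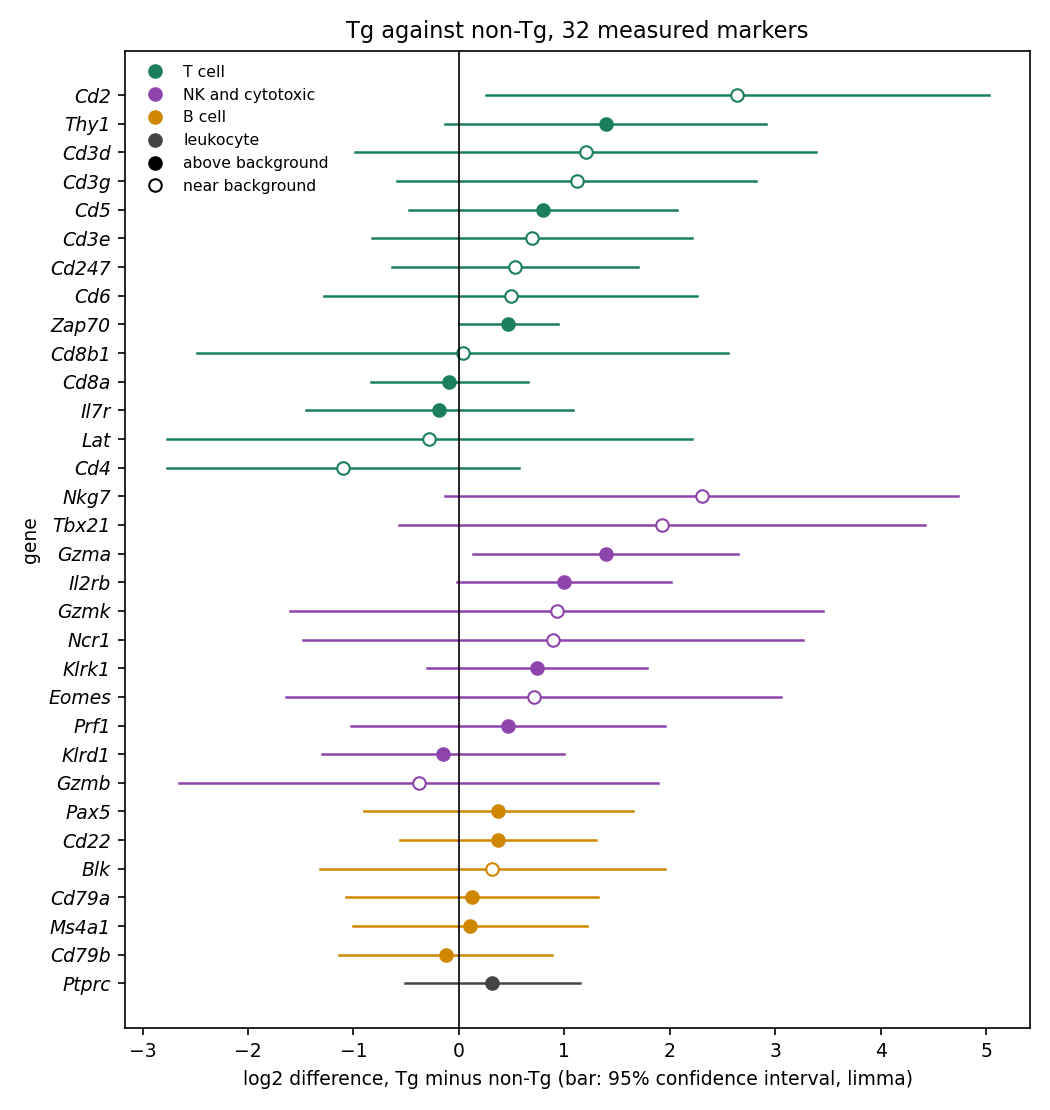
The horizontal axis is the log2 difference, Tg minus non-Tg, with bars for limma's 95% confidence interval (3 mice per group), and the vertical axis lists the 32 measured markers by cell type. Filled points are genes above the background line and open points genes near it. Intervals of Cd2, Zap70 and Gzma lie above 0 and those of the other 29 include it, before any adjustment for the 18193 genes tested.

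B cell markers, all but 1 of them above background, had the smallest median difference of the 3 cell types. Cd79a and Cd79b encode the signalling chains of the B cell receptor. Cd79a was at 7.23, 6.33 and 6.13 in non-Tg livers and 7.44, 6.70 and 5.93 in Tg livers, a difference of 0.12 ± 0.54 (SE). Cd79b was at 7.64, 6.40 and 7.34 in non-Tg livers and 7.34, 7.25 and 6.42 in Tg livers, a difference of -0.13 ± 0.46 (SE), or 0.92-fold with a 95% interval from 0.45 to 1.85. For both genes the groups overlapped widely. Ms4a1 (CD20) stood at 0.11 ± 0.50 (SE), Cd22, an inhibitory receptor, at 0.37 ± 0.42 (SE), and Pax5, the factor that holds B cell identity, at 0.37 ± 0.58 (SE). Blk, a kinase below the receptor and the only B cell marker near background, stood at 0.32 ± 0.74 (SE). The dimmer probe sets of Ms4a1 and Pax5 gave -1.22 and 1.62. The B cell median of 0.22 depended on single livers: it was -0.12 without Tg 5, 0.02 without non-Tg 1, 0.04 without non-Tg 3 and 0.43 without non-Tg 2.

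Ptprc, the phosphatase CD45 carried by all leukocytes, was the brightest of the 32. Its log2 signal was 9.45, 9.32 and 10.01 in non-Tg livers and 9.97, 10.78 and 8.98 in Tg livers. Tg 6 was the highest and Tg 7 the lowest of the 6 livers, and the means differed by 0.32 ± 0.37 (SE), a fold of 1.25 with a 95% interval from 0.70 to 2.21 (limma adjusted p = 0.905).

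The Tg livers were not alike. Of the 32 markers, 14 had their highest value in Tg 6 and 10 in Tg 5, but 1 in Tg 7. The lowest value fell in non-Tg 2 for 11 markers, non-Tg 3 for 7, non-Tg 1 for 6, Tg 7 for 5, Tg 6 for 3 and Tg 5 for 0. Summed over the 32 genes, the antilogged signal was 3868, 3059 and 3581 in non-Tg 1, 2 and 3 and 5313, 5862 and 3224 in Tg 5, 6 and 7. Tg 7 thus lay inside the non-Tg range and the other Tg livers above it. Without Tg 6 the T cell median was 0.35, and without Tg 5 it was 0.77.

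The arrays also differed in a technical mark that goes with this order. The bacterial spike-in bioC, added before hybridization, read from 9.83 to 9.94 on non-Tg 1, Tg 5 and Tg 6 and from 11.21 to 11.44 on non-Tg 2, non-Tg 3 and Tg 7, so each set of arrays holds both groups. Probes for the ribosomal RNA of the small subunit read 6.06 in Tg 5 and 6.29 in Tg 6, the livers with the highest marker sums, and from 7.23 to 8.13 in the other 4. Actin signal at the 3′ end exceeded that at the 5′ end by 0.73 to 0.81 in the lower and by 1.09 to 1.19 in the higher set. The part of RNA quality in the marker values was not tested. Within groups, the median difference of the higher from the lower set was -0.45 for T cell, -0.82 for NK and cytotoxic and -0.28 for B cell markers. Inside the lower set the median difference between Tg and non-Tg was 0.38 for T cell, 0.55 for NK and cytotoxic and 0.39 for B cell markers. Inside the higher set these medians were 0.54, 0.74 and -0.15. With the array set as a block they were 0.40, 0.62 and 0.15, and none of the 32 markers passed (limma adjusted p from 0.863 to 1.00). Gzma differed by 1.23 and 0.95 inside the sets and Il2rb by 1.30 and 0.74, while Cd2 gave 5.02 and 0.60 and Tbx21 4.35 and -0.46. Each set has a single mouse in 1 of its groups, so these values carry no test.

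**Figure D4:**
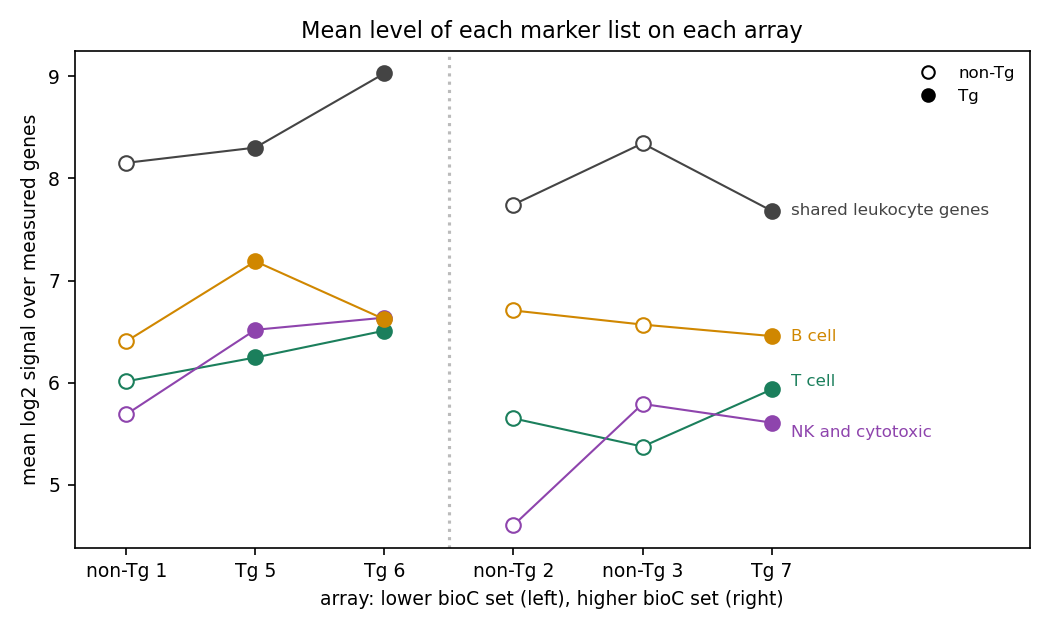
The vertical axis is the mean log2 signal over the measured genes of a list, and the horizontal axis the 6 arrays, with the lower bioC set left and the higher set right of the dotted line. Open points are non-Tg and filled points Tg livers, and lines join arrays of a set. T cell and NK lists are highest in Tg 5 and Tg 6, and the shared leukocyte genes are highest in Tg 6 and lowest in Tg 7.

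Further genes of the same cells did not pass either. Of 24 further T cell genes 0 passed, 14 were higher in Tg livers and the median difference was 0.24. With the array set as a block this median was -0.11, and it was -0.14 without non-Tg 2, 0.01 without Tg 5, 0.02 without Tg 6 and 0.60 without non-Tg 3. Cd28, a costimulatory receptor, did not overlap between groups, at 3.84 ± 1.93 in non-Tg and 6.15 ± 0.64 in Tg livers (SD, n = 3 each; limma adjusted p = 0.826), and Ubash3a and Sh2d1a differed by 2.30 and 2.29. Of 25 further NK and cytotoxic genes 0 passed and 17 were higher, with a median of 0.50, or 0.35 with the block. Klrc1 (NKG2A), the partner of CD94, was at 4.04 ± 1.53 in non-Tg and 6.14 ± 0.15 in Tg livers (SD, n = 3 each) without overlap, Il12rb2 differed by 2.16 and Cd244a by 1.60. Of 21 further B and plasma cell genes 0 passed and 13 were higher, with a median of 0.15, or 0.02 with the block. Without non-Tg 2, Tg 5 or Tg 6 the B and plasma cell median was -0.14, -0.03 or -0.06. Btk, a kinase of the B cell receptor that myeloid cells also use, was lower in Tg livers without overlap (-0.67), while Tnfrsf13c and Cd37 stood at 1.63 and 1.24. Every gene named here except Btk was near background. Without overlap, 3 of the further T cell genes were higher and 0 lower, and 1 and 1 of the NK and cytotoxic genes. For the B and plasma cell genes the counts were 0 and 1, against 6.12% and 5.09% of all genes.

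Signals that keep or attract lymphocytes, and ligands of NK cells, held no called gene. Of 24 such genes 14 were higher, with a median of 0.16, or -0.02 with the array set as a block. Vcam1, an adhesion molecule that captures lymphocytes on endothelium, was at 8.47, 8.42 and 9.44 in non-Tg livers and 9.37, 11.21 and 9.43 in Tg livers, a difference of 1.23 (limma adjusted p = 0.825). Il2 and Madcam1, both near background, did not overlap between groups and differed by 2.30 and 1.67. Of the 24 genes, 4 were higher and 2 lower without overlap, against 6.12% and 5.09% of all genes. Of 12 ligands of NK receptors and class I genes 9 were higher, with a median of 0.12. Clec2d, which encodes the ligand of an inhibitory NK receptor, was at 9.77, 10.82 and 11.29 in non-Tg livers and 9.38, 8.85 and 10.30 in Tg livers, a difference of -1.12 (limma adjusted p = 0.819). Nectin2 and Tap1 stood at 0.24 and 0.35.

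The summed signal of markers of other leukocytes was also highest in Tg 6. Of 16 genes shared by most leukocytes 12 were higher in Tg livers, with a median of 0.33, and 12 had their highest value in Tg 6. Without that liver the median was -0.02. Their summed signal ran from 5789 to 6964 in non-Tg and from 4569 to 12430 in Tg livers. Ptpn6, Laptm5 and Was, the 3 with the smallest p, differed by -0.50, 0.55 and 0.58. Of 14 Kupffer cell and macrophage markers 13 were above background and 12 were higher in Tg livers, with a median of 0.26, or 0.05 with the array set as a block and -0.20 without Tg 6. Their summed signal ran from 31431 to 34540 in non-Tg and from 24597 to 66398 in Tg livers, highest in Tg 6 and lowest in Tg 7. Of 10 neutrophil markers 5 were above background, and 5 were higher in Tg livers, with a median of -0.04. Their sum ran from 551 to 888 in non-Tg and from 439 to 1066 in Tg livers, and their mean levels from 2.69 (Camp) to 6.96 (Csf3r). Mmp8, near background, was 2.37 higher without overlap. It was the 1 neutrophil marker of 10 higher without overlap, and 0 were lower, against 6.12% and 5.09% of all genes. Of 9 dendritic cell markers, 5 above background, 6 were higher in Tg livers, with a median of 0.27, or 0.08 with the block. Their sum ran from 1962 to 4523 in non-Tg and from 3139 to 12542 in Tg livers. In the highest sum, that of Tg 6, H2-Aa at a log2 signal of 13.49 weighed most. The mean log2 signal of the 9 ran from 6.19 to 7.03 in non-Tg and from 6.41 to 7.22 in Tg livers. All 6 erythroid markers, 3 of them above background, were higher in Tg livers, with a median of 0.62, or 0.54 with the block, and none passed. The erythroid sum, in which bright genes weigh most, ran from 3920 to 4696 in non-Tg and from 5146 to 7170 in Tg livers. By mean log2 signal the groups overlapped, from 6.40 to 7.48 in non-Tg and from 7.39 to 8.44 in Tg livers. Alas2 and Hbb-b2, at mean log2 signals of 11.93 and 8.09, differed by 0.46 and 0.79. Of 10 endothelial markers, all above background, 7 were higher, with a median of 0.11 and sums from 15778 to 17550 in non-Tg and from 15477 to 19000 in Tg livers. Of 10 stellate cell markers, 9 above background, 4 were higher, with a median of -0.22 and sums from 14106 to 18605 in non-Tg and from 13131 to 15307 in Tg livers. At an unadjusted limma p under 0.05, 2 stellate cell markers were higher and 2 lower, against 3.19% and 2.86% of all genes. So were 2 erythroid markers and 1 neutrophil marker on the higher side, and 1 shared leukocyte gene on the lower. None of these passed after adjustment. The part of these other cells in the lymphocyte values was not tested.

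Checks of the whole arrays were as follows. Retnla was at 6.64 ± 0.71 in non-Tg and 15.996 ± 0.073 in Tg livers (SD, n = 3 each), matching the labels. All 11 measured hepatocyte markers were above background, with a median difference of 0.0034 and single ones from -0.20 (Apob) to 1.12 (Tat). At an unadjusted limma p under 0.05, 3 of the 11 were higher in Tg livers (Tat, Ass1 and Pck1), and none passed after adjustment. Median log2 signals of the arrays ran from 6.49 to 6.74, highest in Tg 5. The number of arrays limits the precision, and a marker that did not pass is not shown to be unchanged.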

How the data were processed

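Liver RNA of 3 Tg and 3 non-Tg mice was measured on 1 array each. The p-values set group differences against the spread between these mice, which cannot be told apart from that between their arrays. The authors' deposited table gives 1 log2 signal per probe set and array. The submitters' processing notes name GCOS, Affymetrix's array software; how it summarised probes and to what target it scaled is not stated there. The log2 values run from -2.64 to 16.8. After antilog, the trimmed mean signal was 499.8 on every array, so arrays were scaled before deposit.

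After 64 control probe sets were set aside, 34945 of 45037 probe sets had 1 gene symbol in GEO's platform annotation, 932 several and 9160 none; only the first were used. A probe set shared by Klrb1b and Klrb1c was therefore left out. The highest-mean probe set stood for each of 18193 genes. Nothing was added before the log and no filter was applied, because many markers are dim; 20 of the 32 markers pass a filter at the 40th percentile of probe sets (a log2 signal of 5.63). Groups were compared with limma 3.58.1 (R 4.3.3), using lmFit and then eBayes with a trend on intensity, in 2-sided tests with Benjamini-Hochberg adjustment over all 18193 genes at 0.05. SEs are limma's moderated ones (10.3 degrees of freedom). The step was tested on simulated data, with known changes put into genes drawn from all 18193. It called 26.2% of log2 changes of 1, 44.9% of 2 and 56.6% of 3, with 3.4 false calls per run on average. Detection at the signal of the dim markers was not tested apart.

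The markers and further lists were chosen with earlier results of these data known. Each measured marker is named; of each further list for lymphocytes, their signals and leukocytes, the 3 genes with the smallest p are named. Markers of other cells are given by list, and the few of them that are named were chosen after their values were seen. The list medians carry no test. Some further lists share a gene: Cd37 is counted with B cell and with shared leukocyte genes, and Txk with T cell and with NK genes. Cd48 is counted with shared leukocyte genes and with NK ligands. Symbols matched RefSeq (GRCm38.p6) by Entrez number for 34741 probe sets. Figures were drawn with matplotlib 3.10.9.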

Additional observations from a re-analysis of the deposited data

How the results depend on the processing

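None of the 32 markers passed in any limma fit run: constants of 16 or 64 added before the log, filters at the 40th and 70th percentile, quantile normalization, median centring, moderation without the trend or robust, array weights, the mean over probe sets, the array set as a block, leaving out each mouse, and a threshold of 0.1. The lowest adjusted p of a marker in these fits was 0.534 (Zap70). Over all genes 2 passed as reported, 1 without the trend, 1 with the mean over probe sets, 3 with median centring, 5 with the array set as a block, 6 with robust moderation, and 2 to 6 with a mouse left out. Under a threshold of 0.1, 6 of 18193 genes passed, 0 of them markers.

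The median differences of T cell, NK and B cell markers moved by less than the spread between arrays, except that the NK median was 0.33 with 64 added before the log. That spread, the SD of array medians within groups, was 0.47 for T cell, 0.46 for NK and 0.39 for B cell markers. It exceeds the B cell median of 0.22, so a change of sign can fall within it. Over the mice left out in turn the medians ran from 0.35 to 0.77 for T cell, 0.74 to 1.07 for NK and -0.12 to 0.43 for B cell markers. Over members above background they were 0.47, 0.74 and 0.12. With the shared Klrb1b and Klrb1c probe set, an alternative chosen after seeing the data like the one without both granzymes, the NK median was 0.91. The filter at the 70th percentile left 1 T cell gene and no NK or B cell gene. Of 566 single-marker values under these settings and inside each array set 52 had the other sign, in 20 of the 32 markers. The cause was not tested. Some of the 566 could not change, since both forms of moderation and both filters leave the difference as it is. Of the 12 markers with several probe sets, 6 had probe sets of both signs. No paired analysis was possible because the mice are numbered 1 to 3 and 5 to 7 and share no number.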
